A study of Mus musculus with 8 samples.

Results

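The α- and β-crystallins were followed across 8 arrays of mouse lens RNA taken at embryonic day 15.5 (E15.5), 4 from wild-type embryos and 4 from dnBrg1 transgenic embryos. All probe sets of the Affymetrix mouse genome array that its annotation assigns to Cryaa, Cryab, Cryba1, Cryba2, Cryba4, Crybb1, Crybb2 or Crybb3 alone were taken, which gave 10 of the 22690 probe sets in the table, for 8 of the 12393 genes that some probe set names alone. Cryab had 3 of these 10 probe sets and the other 7 genes had 1 each. Values are intensities after robust multichip average (RMA), given here on the log2 scale, so a difference of 1 is a 2-fold difference in intensity.

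The transgenic embryos carried dnBrg1, a FLAG-tagged form of Brg1 with a mutated ATP-binding site that acts as a dominant negative. Brg1 (gene Smarca4) is an ATPase of the SWI/SNF chromatin remodeling complexes. The transgene was driven by an αA-crystallin promoter fragment, which is active in postmitotic lens fiber cells, and the mice came from a single founder line (B3) kept as heterozygotes. Wild-type littermates served as controls, and the labels call the strain of all samples a mixed background. Polysome-bound RNA is named in the descriptions of 6 samples, which are the 4 wild-type ones and dnBrg1 replicates 1 and 2. For dnBrg1 replicates 3 and 4 the description names only total RNA, and the molecule field of every sample reads total RNA.

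Crystallins are the bulk soluble proteins of the lens, and their ordered packing at high concentration keeps the tissue transparent. α-crystallins belong to the small heat shock protein family and act as chaperones that hold damaged proteins in solution. β-crystallins form dimers and larger oligomers from acidic (βA) and basic (βB) subunits, and they share their fold with the γ-crystallins. Transcripts of these genes accumulate as epithelial cells leave the cell cycle and elongate into fibers, under factors that include Pax6, Maf, Sox and Hsf4. Cataract in humans and mice can be caused by mutations in many of these genes.

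Promoter windows of the reference genome show what these genes share at their starts. RefSeq windows (GRCm38.p6) of 300 bases, from 250 before to 50 after the annotated start, were found for 7 of the 8 genes. TGCTGA, which is one arm of the palindrome bound by Maf proteins, was searched on both strands and was present in 6 of the 7 windows (all but Crybb2), against 19.5% of 32817 windows of the same length. TATAA on the gene strand was present in 4 windows (Cryba1, Cryba2, Cryba4 and Crybb1) and in 17.5% of all windows, and TATATA was present in that of Cryaa and in 5.67% of all. The window of Cryba4 held 3 copies of TGCTGA. A heat shock element core (GAANNTTC, both strands) was found in 0 of the 7 windows and in 7.86% of all, and a Sox-type AACAAT (both strands) in that of Crybb1 and in 10.7% of all. These are matches of letters, and no binding was measured in these samples.

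Of these windows, 4 are printed 5′ to 3′ on the gene strand, with these TATA-type motifs and TGCTGA (on either strand) in capitals. Cryaa (chr17:31677681-31677980, plus strand) is the gene whose promoter drives the transgene. Cryba4 (chr5:112252469-112252768, minus strand) and Crybb1 (chr5:112255570-112255869, plus strand) are neighbors transcribed away from each other, and the difference between their values within an array shifted between the genotypes. Crybb3 (chr5:113081535-113081834, minus strand), next to Crybb2 on the same chromosome, had the brightest non-control probe set of 2 wild-type arrays.
Cryaa: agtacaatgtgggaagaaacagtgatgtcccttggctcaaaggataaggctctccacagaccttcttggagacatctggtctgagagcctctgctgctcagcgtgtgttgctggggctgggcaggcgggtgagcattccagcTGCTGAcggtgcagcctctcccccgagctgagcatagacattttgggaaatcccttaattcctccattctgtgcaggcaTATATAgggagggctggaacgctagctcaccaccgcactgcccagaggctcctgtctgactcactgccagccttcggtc
Cryba4: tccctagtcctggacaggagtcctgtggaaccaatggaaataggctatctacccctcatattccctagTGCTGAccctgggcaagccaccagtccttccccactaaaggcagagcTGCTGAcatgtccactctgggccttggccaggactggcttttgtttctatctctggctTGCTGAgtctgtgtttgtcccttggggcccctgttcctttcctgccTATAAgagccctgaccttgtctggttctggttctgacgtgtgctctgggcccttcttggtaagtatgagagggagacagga
Crybb1: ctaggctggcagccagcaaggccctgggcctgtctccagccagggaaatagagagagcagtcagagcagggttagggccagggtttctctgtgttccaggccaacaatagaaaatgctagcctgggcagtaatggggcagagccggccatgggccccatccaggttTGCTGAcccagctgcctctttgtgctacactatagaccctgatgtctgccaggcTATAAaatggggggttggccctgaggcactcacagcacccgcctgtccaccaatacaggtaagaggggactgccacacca
Crybb3: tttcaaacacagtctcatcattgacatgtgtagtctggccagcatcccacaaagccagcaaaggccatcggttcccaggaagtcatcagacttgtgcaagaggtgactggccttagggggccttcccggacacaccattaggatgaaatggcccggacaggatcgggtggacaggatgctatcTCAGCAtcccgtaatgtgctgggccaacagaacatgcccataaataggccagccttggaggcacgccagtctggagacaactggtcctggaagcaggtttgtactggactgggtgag

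None of the 10 probe sets differed between dnBrg1 and wild-type lenses at a Benjamini-Hochberg adjusted p under 0.05 (limma), and 0 had an unadjusted p under 0.05. The largest difference was that of Cryab, at 0.23 on the log2 scale. In the same fit 40.8% of 22626 probe sets were called, with 19.8% higher and 21.0% lower in dnBrg1 lenses. The median difference without its sign was 0.11 over the 10 probe sets and 0.34 over all probe sets tested, and the median signed difference was 0.01 against -0.08. Values of the 2 groups did not overlap for 3 of the 10 probe sets (Cryba2 and Cryba4 higher, Crybb3 lower in dnBrg1), while 40.1% of all probe sets did not overlap. In RNA from whole lenses, fewer cells of a type and less RNA per cell cannot be told apart.

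**Figure D1:**
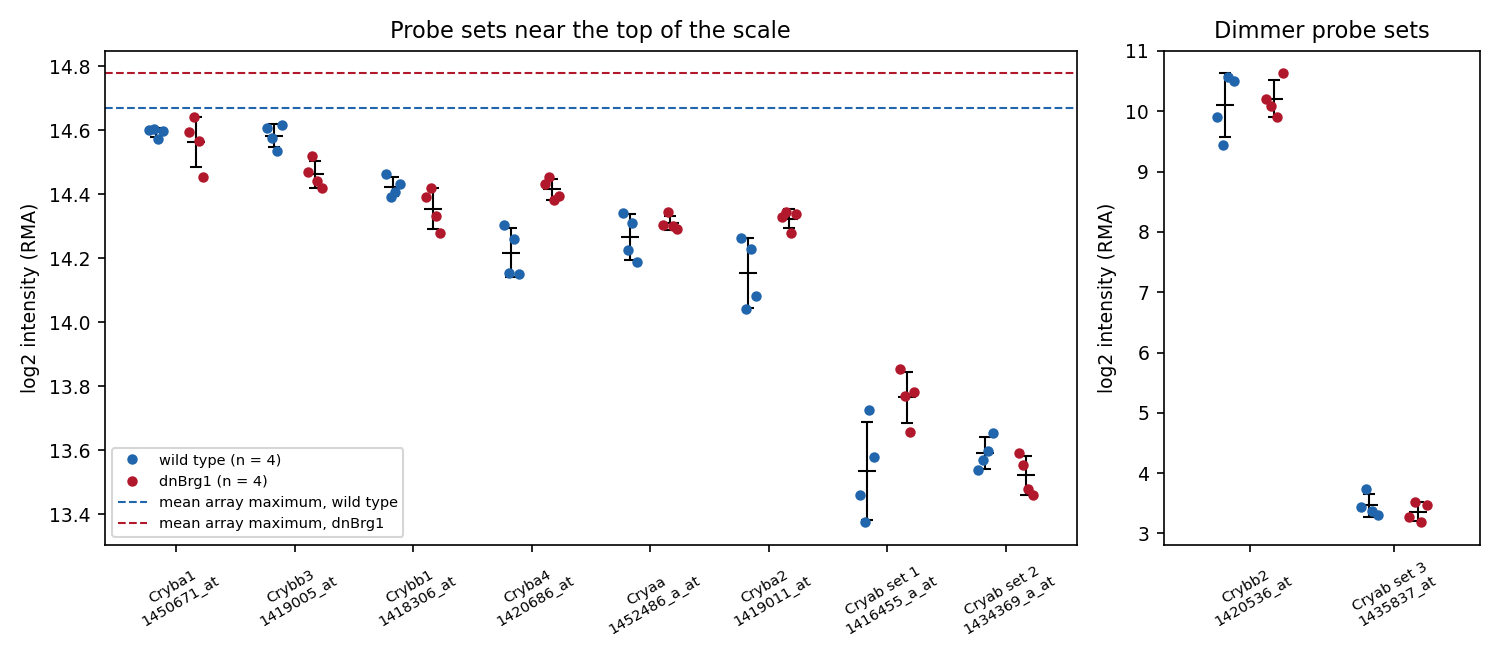
Log2 intensity of each α- and β-crystallin probe set in each array, with wild type in blue and dnBrg1 in red, black bars for the mean ± SD (n = 4), and dashed lines for the mean array maximum of each group. The 8 probe sets of the left panel lie below both dashed lines on every array, Cryba2, Cryba4 and Crybb3 are the sets whose groups stand apart, and Crybb2 and Cryab set 3 are the dimmer ones.

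αA-crystallin, encoded by Cryaa, is the lens-restricted α-crystallin and the gene from which the transgene's promoter was taken. Its probe set read 14.34, 14.23, 14.31 and 14.19 in wild-type replicates 1 to 4 and 14.30, 14.34, 14.30 and 14.29 in dnBrg1 replicates 1 to 4. The dnBrg1 values lay at the top of the wild-type range, and wild-type replicates 2 and 4 were the lowest of the 8. Cryaa differed by 0.04 ± 0.09 (SE, n = 4 per group), with a 95% interval of -0.15 to 0.24 and an adjusted p of 0.71 by limma. The sign of this difference turned to -0.06 when each array's maximum was subtracted.

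αB-crystallin, encoded by Cryab, is also made in heart, muscle and other stressed tissues. Its 3 probe sets did not move together. Set 1, the brightest, read 13.46, 13.38, 13.73 and 13.58 in wild type and 13.85, 13.77, 13.66 and 13.78 in dnBrg1, so that wild-type replicate 3 lay inside the dnBrg1 range. The difference was 0.23 ± 0.11, with an interval of -0.01 to 0.47 and an adjusted p of 0.12 by limma. Without wild-type replicate 3 it was 0.29, with an adjusted p of 0.043.

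Cryab set 2 read 13.54, 13.57, 13.60 and 13.66 in wild type and 13.59, 13.55, 13.48 and 13.46 in dnBrg1. Here the 2 lowest values were those of dnBrg1 replicates 3 and 4, and the difference was -0.07 ± 0.09 (adjusted p = 0.56, limma). Cryab set 3 was dim, between 3.19 and 3.74 on all arrays, with a mean at the 10.2nd percentile of the array, and differed by -0.10 ± 0.13. Taken within each array, set 1 minus set 2 was -0.08, -0.19, 0.13 and -0.08 in wild type and 0.26, 0.21, 0.18 and 0.32 in dnBrg1. The 2 bright Cryab probe sets thus changed unequally by 0.30 on the log2 scale, with no overlap between the groups. This pair was chosen after its values were seen and was given no test.

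Among the acidic β-crystallins, Cryba1 encodes βA3- and βA1-crystallin from a single transcript through alternative translation starts. Its probe set was among the brightest of the array and read 14.60, 14.60, 14.57 and 14.60 in wild type and 14.59, 14.64, 14.57 and 14.45 in dnBrg1. The groups overlapped, with dnBrg1 replicate 2 the highest of the 8 and replicate 4 the lowest, and the difference was -0.03 ± 0.09 (adjusted p = 0.81, limma).

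Cryba2, encoding βA2-crystallin, read 14.26, 14.04, 14.23 and 14.08 in wild type and 14.33, 14.35, 14.28 and 14.34 in dnBrg1. Every dnBrg1 value was above every wild-type value, and wild-type replicates 2 and 4 were again the lowest. The difference was 0.17 ± 0.09, with an interval of -0.04 to 0.38 and an adjusted p of 0.18 by limma. Cryba4, encoding βA4-crystallin, also had no overlap between the groups, with 14.30, 14.15, 14.26 and 14.15 in wild type and 14.43, 14.45, 14.38 and 14.40 in dnBrg1. All 4 dnBrg1 samples were higher, by 0.20 ± 0.09 in the mean (interval -0.0022 to 0.40, adjusted p = 0.10, limma).

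The basic β-crystallins were measured by 3 probe sets, 1 per gene. Crybb1, encoding βB1-crystallin, a subunit with a long N-terminal extension, read 14.46, 14.39, 14.41 and 14.43 in wild type and 14.39, 14.42, 14.33 and 14.28 in dnBrg1. The groups overlapped and differed by -0.07 ± 0.09 (adjusted p = 0.56, limma). Crybb3, encoding βB3-crystallin, which is made early and mainly in the lens core, read 14.61, 14.58, 14.54 and 14.61 in wild type. In dnBrg1 it read 14.47, 14.52, 14.44 and 14.42, below every wild-type value. The difference was -0.12 ± 0.09, with an interval of -0.31 to 0.07 and an adjusted p of 0.28 by limma.

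Crybb2 encodes βB2-crystallin, the β-crystallin that accumulates after birth in the mouse. It was the only one of the 8 genes whose highest probe set was far from the top of the scale, with 9.90, 9.44, 10.56 and 10.50 in wild type and 10.21, 10.09, 9.91 and 10.63 in dnBrg1. The groups overlapped in part, and the wild-type samples alone spanned over 1 log2 unit. Crybb2 differed by 0.11 ± 0.26, and its interval of -0.47 to 0.69 was the widest of the 10 (adjusted p = 0.76, limma).

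The calls depended on how the small spread of these bright probe sets was modeled. limma's usual prior takes 1 typical variance for all probe sets, and the median SE of the 10 probe sets was 0.09 against 0.15 over all. When the prior was allowed to follow brightness (with robust estimation), 4 of the 10 probe sets were called by limma, against 41.7% of the array. Cryab set 1 was higher by 0.23 ± 0.08 (adjusted p = 0.036), Cryba2 by 0.17 ± 0.06 (adjusted p = 0.034) and Cryba4 by 0.20 ± 0.05 (adjusted p = 0.0075), and Crybb3 was lower by 0.12 ± 0.04 (log2 fold change -0.12, adjusted p = 0.035). Among the 100 brightest probe sets the share called went from 21% to 43% with the same change, and their median SE from 0.087 to 0.047. Leaving out each sample in turn in this model gave 1 to 4 calls, beside 35.3% to 45.8% of all probe sets called in the same fits. Cryba4 was called in all 8 of these fits.

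**Figure D2:**
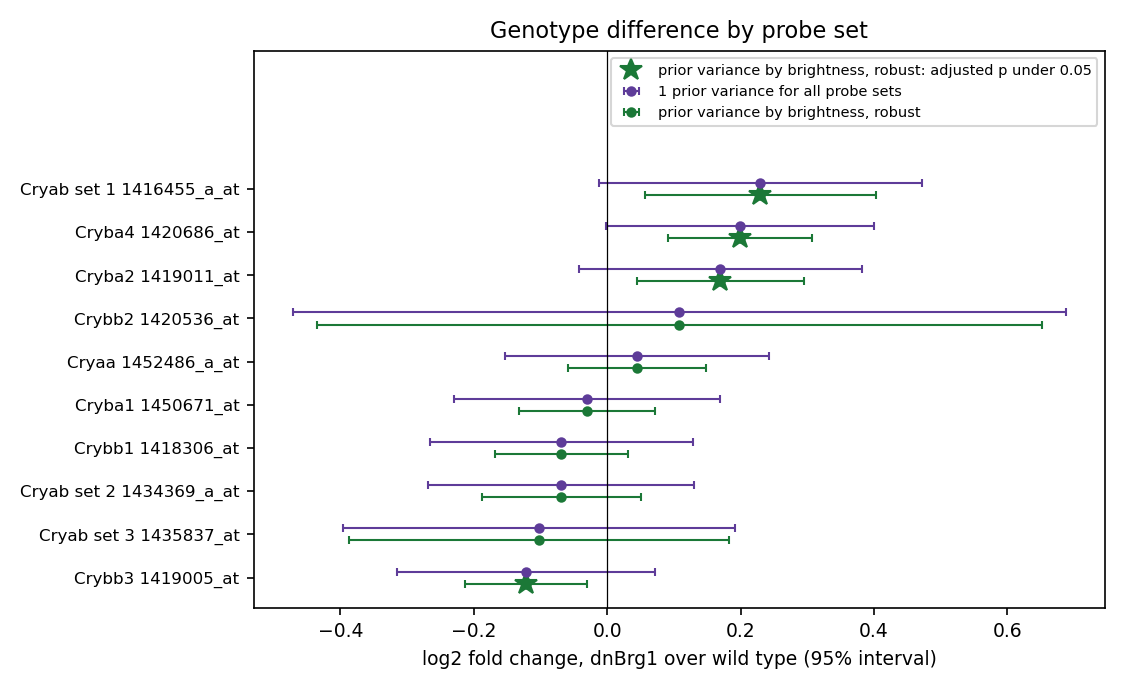
Log2 fold change (dnBrg1 over wild type) of each α- and β-crystallin probe set with its 95% interval, from 1 prior variance for all probe sets (purple) and from a prior that follows brightness with robust estimation (green). Every purple interval includes 0, and the 4 green stars (Cryab set 1, Cryba4, Cryba2 and Crybb3) mark adjusted p under 0.05.

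Distance to the array maximum describes how close a probe set lay to the top of an array's values, and saturation of the signal was not tested. On all 8 arrays the maximum was a control for phage cre transcripts, which are spiked into the hybridization mix and are not made by the lens. Its mean was 14.67 in wild type (SD 0.0054, n = 4) and 14.78 in dnBrg1 (SD 0.016), with no overlap and a difference of 0.11, and the other 3 cre controls were 0.08 to 0.10 higher in dnBrg1. Over non-control probe sets the maximum was 14.60 in both groups (difference -0.0032). That place was held by Crybb3 in wild-type replicates 1 and 4, by Cryba1 in wild-type replicate 2 and dnBrg1 replicates 1 and 2, and by ribosomal protein probe sets on the other 3 arrays (Rpl41 in dnBrg1 replicates 3 and 4, and a set naming Rpl29 with several other genes in wild-type replicate 3).

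Cryba1 lay 0.065, 0.062, 0.103 and 0.078 below the array maximum in wild type and 0.165, 0.140, 0.211 and 0.344 below it in dnBrg1. For Crybb3 the distance was 0.059, 0.090, 0.139 and 0.060 in wild type and 0.290, 0.261, 0.338 and 0.378 in dnBrg1. Both were thus farther from the maximum on every dnBrg1 array, and that maximum was itself 0.11 higher in dnBrg1. Crybb1 was 0.247 ± 0.033 (SD, n = 4) below it in wild type and 0.423 ± 0.076 in dnBrg1, again with no overlap, as was Cryab set 2 (1.08 ± 0.045 and 1.26 ± 0.075). Without the subtraction the differences of Cryba1, Crybb3, Crybb1 and Cryab set 2 were -0.03, -0.12, -0.07 and -0.07. For each of them the largest distances were those of dnBrg1 replicates 3 and 4, whose descriptions name only total RNA. With dnBrg1 replicates 1 and 2 only, the differences without the subtraction were 0.02, -0.09, -0.02 and -0.02, in the same order. The part of the RNA named in the descriptions was not tested. With the array maximum subtracted, limma with its usual prior called 0 of the 10 and 47% of all probe sets.

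The distances of the other genes overlapped between groups. Cryaa lay 0.404 ± 0.073 (SD, n = 4) below the maximum in wild type and 0.468 ± 0.030 in dnBrg1. Cryba4 was at 0.453 ± 0.079 and 0.362 ± 0.042, and Cryba2 at 0.517 ± 0.11 and 0.456 ± 0.032. Cryab set 1 was at 1.14 ± 0.15 and 1.01 ± 0.087. Crybb2, at 4.57 in both groups (SD 0.52 and 0.30), and Cryab set 3, at 11.2 and 11.4, were far from the top.

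The highest non-control probe set gave another reference, which was itself Crybb3 or Cryba1 on 5 of the 8 arrays, so the distance of Crybb3 was 0 by construction in wild-type replicates 1 and 4. Crybb3 was farther below it in every dnBrg1 sample (0.021 ± 0.026 in wild type and 0.139 ± 0.019 in dnBrg1). Cryba4 came closer in every dnBrg1 sample, from 0.387 ± 0.083 to 0.185 ± 0.021, and so did Cryba2, from 0.451 ± 0.11 to 0.278 ± 0.034. Crybb1 (0.180 and 0.246) overlapped between the groups on this scale. Cryba1 (0.010 and 0.037) was at 0 by construction in wild-type replicate 2 and dnBrg1 replicates 1 and 2, so its overlap was fixed in advance. When the array maximum was subtracted before limma with the brightness-dependent prior, the 4 probe sets called were Crybb3, Cryba1, Crybb1 and Cryab set 2, all lower, at -0.23, -0.14, -0.18 and -0.18. Under that setting 48.4% of all probe sets were called, and 35.4% of those calls were higher. That scaling moved the median difference of all probe sets from -0.08 to -0.19. With that prior, Crybb3 was the only one of the 10 probe sets called lower both with and without the subtraction, and its adjusted p from limma with the array maximum subtracted was 0.0016.

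**Figure D3:**
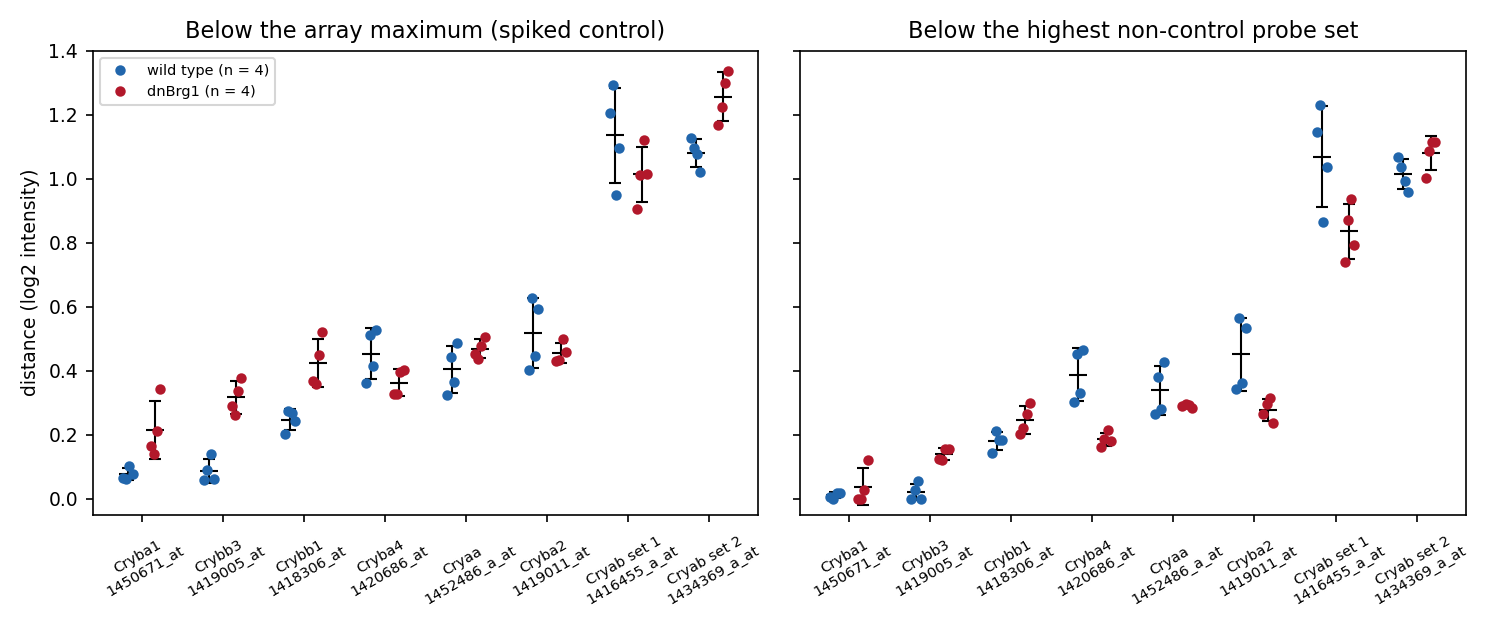
Distance in log2 units of 8 α- and β-crystallin probe sets below the array maximum (left, a spiked-in control) and below the highest non-control probe set (right) on every array, with wild type in blue, dnBrg1 in red and mean ± SD (n = 4). Crybb3, which is itself the right-hand reference on 2 wild-type arrays, is farther below both references in dnBrg1, and Cryba4 and Cryba2 are closer only to the non-control reference without overlap; Crybb2 and Cryab set 3 lie far below and are left out.

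Differences of other bright probe sets give the setting for these values. Of the 50 brightest non-control probe sets 6 were crystallins of these families (Cryaa, Cryba1, Cryba2, Cryba4, Crybb1 and Crybb3). On single arrays 5 or 6 were among the 50 brightest, and all 6 were among the 100 brightest on every array. The 100 brightest, with means of at least 13.9, had a median unsigned difference of 0.12, and 21% of them were called (9 higher and 12 lower). For the 4500 probe sets that followed the 500 brightest the median was 0.38 and 51.9% were called. The part of brightness in the size of the crystallins' differences was not tested.

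**Figure D4:**
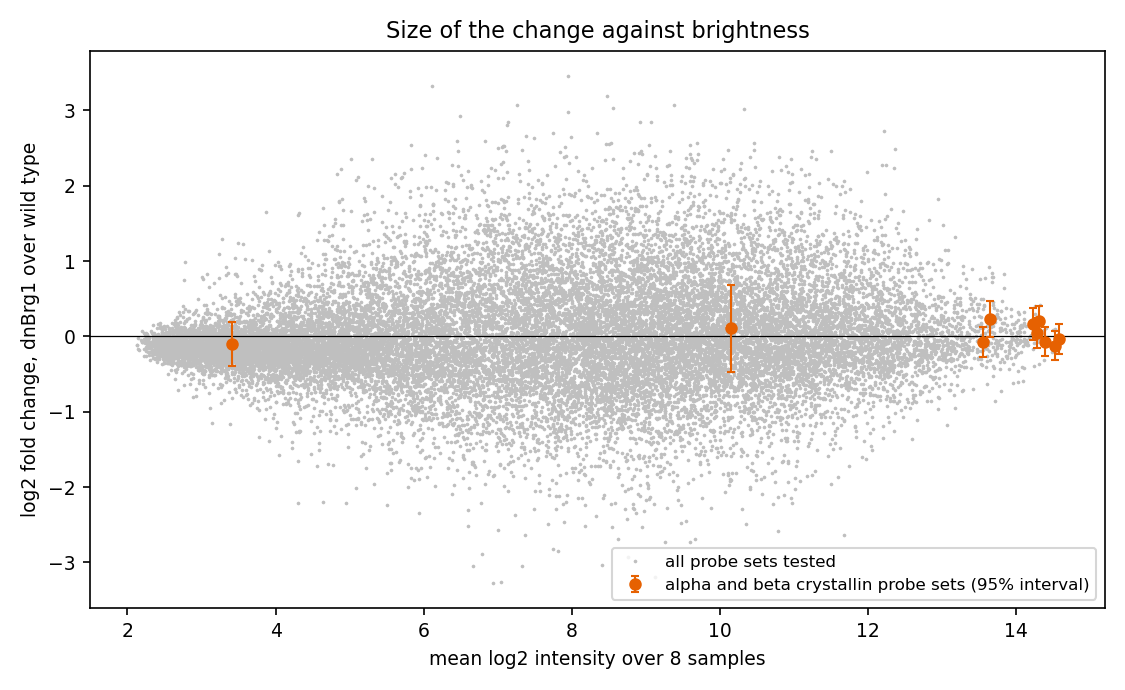
Log2 fold change (dnBrg1 over wild type) against mean log2 intensity over the 8 samples for 22626 probe sets (grey) and the 10 α- and β-crystallin probe sets (orange, with 95% interval). 8 of the 10 orange points lie above 13.4 at the right edge, while Crybb2 and Cryab set 3 lie near 10.2 and 3.4. Over the 100 brightest probe sets the median unsigned difference was 0.12 and the largest 0.62.

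Neighboring genes on chromosome 5 gave a further comparison within arrays. Cryba4 minus Crybb1 was -0.16, -0.24, -0.15 and -0.28 in wild type and 0.04, 0.03, 0.05 and 0.12 in dnBrg1. The sign was negative on every wild-type array and positive on every dnBrg1 array, a shift of 0.27. Such a difference between 2 probe sets of the same array is not altered when a constant is subtracted from all values of an array, and it shows unequal change, not which gene moved. For the other adjacent pair, Crybb2 minus Crybb3, the groups overlapped (-4.48 ± 0.54 in wild type and -4.25 ± 0.33 in dnBrg1). The Cryba4 and Crybb1 pair was singled out after its values were seen.

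**Figure D5:**
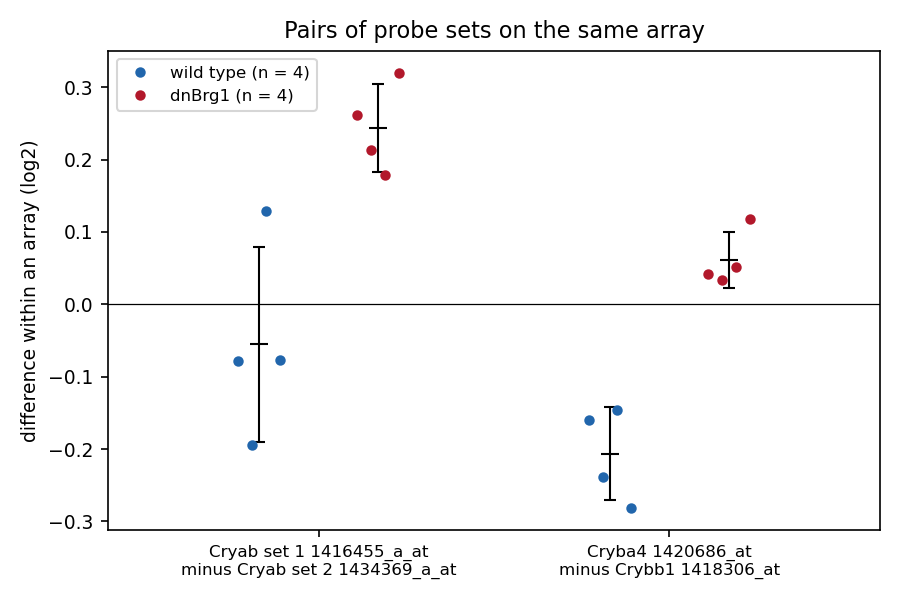
Difference in log2 intensity between 2 probe sets of the same array in wild type (blue) and dnBrg1 (red), with mean ± SD (n = 4), for the 2 bright Cryab probe sets and for the neighbors Cryba4 and Crybb1. In both pairs every dnBrg1 value is above every wild-type value, with means of -0.06 and 0.24 for Cryab and -0.21 and 0.06 for Cryba4 minus Crybb1.

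Samples of the same genotype differed along shared lines. After the genotype means were removed, Cryaa, Cryba2 and Cryba4 varied together over the 8 samples (Pearson's r = 0.89 to 0.96 across pairs), and Cryba1, Crybb1 and Crybb3 formed a second set (r = 0.77 to 0.87). Cryab set 1 varied with Crybb2 (r = 0.84). All points of a correlation come from the same arrays and normalization, so these values are descriptions. The probe sets most like the members' mean profile were those of Itgb1, an integrin subunit (r = 0.99, n = 8), Lamp2, a lysosomal membrane protein (r = 0.99), and Snx18, a sorting nexin (r = 0.99). They ranked highest of all probe sets outside the lens crystallin families that name 1 gene and have a mean at or above the median. Such high r values are thus partly owed to the selection. That mean profile mostly carried Crybb2 and Cryab, with which it correlated at 0.87 and 0.90, and not Crybb3 (-0.02).

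Of 12 other genes with crystallin names that were measured, 2 rose and 5 fell, with a median difference of -0.17. Over all probe sets 19.8% were called higher and 21.0% lower, with a median of -0.08. The γ-crystallins Crygf, Cryga and Crygd, structural proteins of the same fold as the β-crystallins, fell by 0.52 ± 0.10, 0.36 ± 0.09 and 0.34 ± 0.09 on the log2 scale (adjusted p = 0.0022, 0.012 and 0.018, limma), and were also bright (wild-type means of 13.95, 14.50 and 14.01). Crygb (-0.25), Crygn (-0.09) and Crygs (-0.06) did not pass the test. None of the 3 that fell was called with the array controls' 3′ to 5′ difference in the model. Their differences there were -0.50 ± 0.22 (Crygf), -0.34 ± 0.20 (Cryga) and -0.40 ± 0.21 (Crygd), close to the first ones but with a larger SE. The sequences of Cryga to Crygf are nearly alike, so cross-hybridization among them could not be told apart from shared change. The members that bear the name but are no structural lens proteins gave both directions, with Crym, a thyroid hormone-binding protein, at -1.40 and Cryl1, a gulonate dehydrogenase, at 1.04, while Cryz (-0.08) and Cryzl1 (0.00) did not pass the test. Crybg3 was at -1.0 and Crybg1 at 1.07. With the same term in the model Crym turned to 0.031 and Crybg1 to -0.14, and Cryl1 and Crybg3 were the 2 of the 12 that were called. The probe sets of Crym (7.12 in wild type and 5.72 in dnBrg1), Crybg1 (5.33 and 6.40) and Cryl1 (5.25 and 6.29) were dim, below the median of all probe sets (7.69). With dim probe sets left out 0 of 9 other crystallin genes were called higher and 5 lower, beside 58.1% of all that remained called.

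Small heat shock proteins, the family of the α-crystallins, were called in 3 of 5 measured cases (2 higher and 1 lower), beside 40.8% of all probe sets. Hspb2, which lies next to Cryab on chromosome 9, read 9.22, 8.76, 9.44 and 9.06 in wild type and 9.86, 9.75, 9.86 and 10.16 in dnBrg1. It was thus higher in every dnBrg1 sample, by 0.79 ± 0.16 (adjusted p = 0.0034, limma). Hspb3 rose by 1.08 ± 0.28 and Hspb1 fell by 1.26 ± 0.44 on the log2 scale, with overlap between the groups for both. The call of Hspb1 (adjusted p = 0.045, limma) was lost in 14 of 22 other settings. The median over the 5 genes was 0.08, and Hspb7 and Hspb8 were not called. With the array controls' 3′ to 5′ difference in the model none of the 3 was called and the differences of Hspb2 and Hspb3 turned to -0.01 and -0.21.

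Regulators of crystallin genes were called in 15 of 23 cases, with 3 higher and 12 lower and a median of -0.48, beside 40.8% of all probe sets called and a median of -0.08. The 23 include Smarca4, the gene of the transgene, by its brighter probe set (-0.24, not called). With a 1.5-fold minimum 9 were called, all lower, beside 28% of all probe sets. With the array controls' 3′ to 5′ difference in the model 2 of the 23 were called, both lower. Among those that fell was Hsf2, a heat shock factor (-2.21 ± 0.19). Its probe set was dim, at 6.06 in wild type and 3.85 in dnBrg1, below the median of all probe sets (7.69). Pitx3, a lens homeodomain factor (-1.24 ± 0.10), Etv5, an ETS factor downstream of FGF signaling (-1.12 ± 0.26), and the coactivator Crebbp (-1.05 ± 0.12) also fell. So did Sox2 (-0.86 ± 0.11) and the small Maf protein Mafg (-0.80 ± 0.18). With dim probe sets left out 12 of 17 regulators were called (2 higher and 10 lower), beside 58.1% of all that remained. Pax6, Prox1 and Rarb rose by 0.58 ± 0.11, 0.53 ± 0.17 and 0.58 ± 0.17. The groups of Prox1 overlapped, and the probe set of Rarb was dim (6.91 in wild type and 7.49 in dnBrg1). Their calls were lost in 2 of 22 (Pax6), 12 of 22 (Prox1) and 7 of 21 (Rarb) other settings. Hsf4, the heat shock factor of fiber cells, was at 0.07 ± 0.17 and Maf at -0.49 ± 0.21, and neither passed the test (adjusted p = 0.76 and 0.093, limma). Prox1 and Pax6 act in fiber differentiation and in crystallin gene control.

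The transgene and the state of the RNA were checked on the same arrays. The dimmer of 2 Smarca4 probe sets read 7.38 ± 0.47 (SD, n = 4) in wild type and 9.73 ± 0.10 in dnBrg1, a difference of 2.35 ± 0.21, with all 4 dnBrg1 samples higher, while the brighter differed by -0.24 ± 0.11 (adjusted p = 0.12, limma). The 3′ minus 5′ difference of the β-actin control was 2.50 ± 0.48 in wild type and 0.58 ± 0.058 in dnBrg1, and that of Gapdh 1.59 ± 0.58 and 0.67 ± 0.022, each with an exact permutation p of 0.0286 (two-sided, 70 assignments, the smallest p this design allows). With the mean of these differences as a covariate, 0 of the 10 crystallin probe sets and 1442 of all were called by limma. In that fit the differences of Cryab set 1, Cryba2, Cryba4 and Crybb3 were -0.11, -0.08, 0.05 and -0.07. Crybb2 moved the most, to -0.95 ± 0.53 (SE). The control differences of the genotypes did not overlap, so genotype and transcript-end difference cannot be told apart.

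Lens fiber markers had mean levels of 11.5 to 11.7 in wild type and 11.7 to 12.3 in dnBrg1, and 2 of 6 rose (Bfsp1 and Gja3). Mip (-0.05), Crygs (-0.06), Hsf4 (0.07) and Dnase2b (-0.63) were not called. Beside these and the following counts, 19.8% of all probe sets were called higher and 21.0% lower. Lens epithelium markers were at 10.4 to 10.6 in both groups (2 of 4 rose and 1 fell). Markers of tissue around the lens were measured as well: retina (9.78 to 10.4 and 9.39 to 9.63, 3 of 5 fell), mesenchyme (6.82 to 8.15 and 6.53 to 10.1, 0 of 5 called), muscle (5.21 to 5.86 and 5.47 to 7.85, 0 of 5), pigment cells (8.58 to 9.76 and 8.56 to 9.66, 1 of 4 fell), endothelium (8.62 to 8.88 and 8.79 to 9.06, 2 of 6 rose and 2 fell), macrophages (7.87 to 8.21 and 7.45 to 8.41, 2 of 5 rose and 1 fell) and blood (7.20 to 7.78 and 6.78 to 8.31, 0 of 4). Muscle also makes αB-crystallin, and the part of these tissues in the Cryab values was not tested.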

How the data were processed

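Whole-lens RNA (50 ng per array) was amplified and labeled on the NuGEN platform and hybridized to 1 array per sample. The authors processed the scans with RMA (version not given in the sources used here). Deposited values are linear intensities and were converted here to log2. RMA equalizes the arrays' distributions, so it hides any shift common to most transcripts. Median intensities were 196.9 to 209.1, and 4 arrays per group limit the precision.

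Groups came from the genotype labels. All 22626 probe sets left after 64 controls were set aside were fitted with limma 3.58.1 in R 4.3.3 (dnBrg1 minus wild type, no covariates). A call needed an adjusted p under 0.05 (Benjamini-Hochberg over all of them). The labels number the samples as replicates, and p-values reflect the spread among them. Only probe sets naming 1 gene were used, with the brightest per gene for lists. The fitting step was checked on simulated data. All 8 genes and Smarca4 were named with every probe set, as were Hspb2, up to 6 called genes per list by size of change and the 3 probe sets most like the mean profile. Hsf4, Maf, Hspb7, Hspb8, Crygb, Crygd, Crygn, Crygs, Cryz, Cryzl1, Pax6, Prox1, Rarb, Bfsp1, Gja3, Mip and Dnase2b were named after their values were seen, and the printed promoter windows were also chosen then. The 8 genes and the lists were chosen with earlier results of these data known. Promoter windows and gene neighbors are from RefSeq.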

Additional observations from a re-analysis of the deposited data

Results flagged for a closer look

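Of 76 groups of 4 samples examined, 2 held a sample that stood apart from the other 3 by Dixon's 95% criterion (gap to the nearest over the range), and chance alone gives about 1 in 20 groups. Crybg1 was at 7.23 in dnBrg1 replicate 1, against 6.01 to 6.22 in the other dnBrg1 samples. Six3, a homeodomain factor that can repress crystallin genes, was at 11.93 in wild-type replicate 3, against 12.07 to 12.09 in the other wild-type samples. No α- or β-crystallin probe set held such a sample.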

How the results depend on the processing

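The count of α- and β-crystallin probe sets called, 0 of 10 at first, became 4 with a prior variance that follows brightness (with and without robust estimation), 1 with a constant of 16 added (Cryba4), and 4 and 2 with the methods' t-test before and after Benjamini-Hochberg adjustment (2 being Cryba4 and Crybb3). The shares of all probe sets called under these settings were 41.7% and 41.5% (prior with and without robust estimation), 40.4% (constant), 46.9% and 36.4% (t-test). The count of these crystallin probe sets ran from 0 to 1 when each sample was left out (34% to 45% of all), with Cryab called without wild-type replicate 3. With the brightness-dependent prior it ran from 1 to 4 when each sample was left out (35.3% to 45.8% of all). With that prior it was 4 with the array maximum subtracted (all lower, 48.4% of all) and 0 with the control 3′ to 5′ covariate (9.46% of all). These combinations with that prior, the prior without robust estimation and the subtraction of the highest non-control value were added after seeing the data. The cause of these differences was not tested. The median of all differences was -0.19 and the share of calls that were higher 35.9% with the array maximum subtracted, against -0.08 and 48.6% at first.

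Over the whole array, 9229 calls became 5640 with dnBrg1 replicates 1 and 2 only, 1442 with the control covariate and 6031 at an adjusted p under 0.01. Other crystallins went from 7 calls to 2 with the covariate, 3 at 0.01 and 4 with a 1.5-fold minimum. Small heat shock proteins went from 3 to 0 with the covariate and 1 at 0.01. Regulators went from 15 to 2 with the covariate and 9 with the 1.5-fold minimum. With the covariate, differences of genes called at first reversed for Crybg1 (-0.14), Crym (0.031), Hspb2 (-0.0057) and Hspb3 (-0.21). Among the α- and β-crystallin probe sets, none called, the sign changed for Cryaa (-0.08), Cryab set 1 (-0.11) and Cryab set 3 (0.27). It also changed for Cryba1 (0.01), Cryba2 (-0.08) and Crybb2 (-0.95), while Cryab set 2, Cryba4, Crybb1 and Crybb3 kept their sign. The β-actin control difference was -1.87 with dnBrg1 replicates 1 and 2 only (exact permutation p = 0.0667, the smallest possible), and that of Gapdh was -0.92 (exact p = 0.133). When each sample was left out, the Gapdh difference ran from -1.13 to -0.672, and without any 1 of the dnBrg1 samples its exact permutation p was 0.0571.

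Samples with the same replicate number did not vary together (correlations -0.19 to 0.16), so no pairing by number was seen. So few samples cannot exclude a pairing. With the replicate block 7963 probe sets and 0 crystallin probe sets of these families were called.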
